A study of Schizosaccharomyces pombe with 3 samples.

Results

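The 13 regions described here are intergenic features of the fission yeast genome that were raised in the Tup11-GFP precipitate on array F060D but had no accepted input signal on the E120D arrays. They were chosen by measured values. A region was eligible if every spot listed an input signal of 0 and a precipitate signal above 0 on both E120D slides, and if both channels were accepted on F060D. Among the 192 eligible regions, the 13 had a log2 ratio of precipitate over input of 1 or more on F060D, after centring on the median of all yeast features of that array. The arrays carried 5169 intergenic features among 10224 yeast features.

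The study asked where Tup11 sits on chromatin of Schizosaccharomyces pombe. Cells carrying Tup11 fused to green fluorescent protein (GFP) were taken from rich YES medium in mid-log phase, and chromatin was precipitated with an antibody against GFP. Precipitated and input DNA were amplified, labelled with Cy5 and Cy3, and hybridised to spotted arrays of open reading frame (ORF) and intergenic (IGR) products. All 3 arrays belong to the same group. Replicates 1 and 2 were slides of print batch E120D, replicate 3 a slide of batch F060D, and no array of an untagged strain was analysed here. The labels describe separate experiments. F060D is a batch of 1 array, so print batch and experiment cannot be told apart there.

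Tup11 belongs to the Tup1 family of corepressors, proteins that do not bind a DNA sequence themselves but are brought to promoters by sequence-specific factors. It acts with its paralogue Tup12 and with the partner protein Ssn6. The family is known for holding down genes of glucose repression, stress and iron uptake, so intergenic regions are where its signal is looked for.

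The direction of the ratio is likely and not settled. The scanner tables name channels A and B without a dye. As B over A on every array, F060D correlated with replicate 1 at r = -0.54 and with replicate 2 at r = -0.38 across features, while replicates 1 and 2 correlated at 0.72. The sample labels give the precipitate as channel 2 on all 3 arrays and record no dye swap, so they hold no reason for a change of letter. The precipitate was taken as channel B on E120D and channel A on F060D, from the deposited value tables. These look like values of 1 channel per array, and that this channel is the precipitate was assumed. With ORF and intergenic names exchanged between the tables, these tables followed channel A on F060D (r = 0.970, against 0.780 for B) and channel B on replicate 1 (0.501, against 0.229 for A). With each row's own name the values were 0.244 for A on F060D and 0.208 for B on replicate 1. On replicate 2 all matches were between -0.039 and 0.049, so its channel was taken to be that of the other E120D slide. The deposited tables thus disagree on which features are intergenic. Names were taken from the scanner tables, where 64 control spots of Ef1-b had medians of -0.63, -0.78 and 0.74 in replicate order, as centred log2 ratios, nearer to the ORF ef1-b (-0.57, -0.98 and 0.52) than to its intergenic feature (3.30, 1.68 and 3.61). Read with the same letters on all arrays, the 13 regions have ratios from -2.31 to -1.01 on F060D, and none of the 192 reaches 1.

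Each region is named after a gene and was placed in the gap 5′ of that gene, between neighbouring coding sequences or structural RNA genes of the RefSeq assembly ASM294v3. The ends of the printed PCR products were not used here, so a gap is a container for the region and not its extent. The 5′ side is itself an assumption. Across mapped features, intergenic values correlated with the ORF of the named gene at a Spearman's rho of 0.34. The rho was 0.33 for the ORF of the 5′ neighbour and 0.15 for that of the 3′ neighbour. These weak correlations do not settle the side of a single region, and the gaps, neighbours and windows below rest on it. Of the 13 names, 12 matched a gene of the assembly. SPAC1F12.10 did not, and it is called by its printed name, without a position. The windows below show the sequence just before the annotated start of 5 genes at these gaps, from RefSeq (ASM294v3), 5′ to 3′ on the strand of the gene and ending at the base before the start. Cyk3 had the highest ratio. SPCC794.03, hsp16 and zas1 are the 3 named genes whose window held a paired heat shock unit. Rpp201 is shown for its ribosomal protein box. The annotation marks zas1 as partial, so its start may lie elsewhere. Capitals mark matches on either strand to the motifs described after the windows.
cyk3, chrI:1982150-1982399, minus strand: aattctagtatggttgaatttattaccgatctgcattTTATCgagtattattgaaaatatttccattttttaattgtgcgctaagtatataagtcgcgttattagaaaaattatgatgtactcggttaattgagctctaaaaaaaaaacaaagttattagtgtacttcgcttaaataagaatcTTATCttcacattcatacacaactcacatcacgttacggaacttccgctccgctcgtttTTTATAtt
SPCC794.03, chrIII:245677-245926, plus strand: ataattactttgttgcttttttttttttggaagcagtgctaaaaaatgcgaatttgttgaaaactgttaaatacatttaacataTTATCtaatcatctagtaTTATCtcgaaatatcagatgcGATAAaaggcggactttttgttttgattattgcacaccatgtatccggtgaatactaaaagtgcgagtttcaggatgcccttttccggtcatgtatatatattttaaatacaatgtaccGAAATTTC
hsp16, chrII:2660993-2661242, minus strand: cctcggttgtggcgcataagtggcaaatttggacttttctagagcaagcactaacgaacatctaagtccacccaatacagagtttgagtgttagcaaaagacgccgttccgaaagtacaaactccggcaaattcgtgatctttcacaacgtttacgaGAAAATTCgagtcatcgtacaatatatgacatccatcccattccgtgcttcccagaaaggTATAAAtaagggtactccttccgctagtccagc
zas1, chrII:180629-180878, minus strand: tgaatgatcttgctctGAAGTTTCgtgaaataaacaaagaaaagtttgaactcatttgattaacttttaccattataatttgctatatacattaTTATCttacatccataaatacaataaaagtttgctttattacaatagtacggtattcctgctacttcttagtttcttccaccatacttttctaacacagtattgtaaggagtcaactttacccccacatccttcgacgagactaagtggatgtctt
rpp201, chrII:3642911-3643160, plus strand: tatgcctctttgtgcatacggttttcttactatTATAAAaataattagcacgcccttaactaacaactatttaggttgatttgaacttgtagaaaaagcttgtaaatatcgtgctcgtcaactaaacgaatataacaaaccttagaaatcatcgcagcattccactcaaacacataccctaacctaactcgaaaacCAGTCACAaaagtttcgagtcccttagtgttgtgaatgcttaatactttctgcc

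A window of 250 bases could be read for 10 of the named genes, and for 4512 genes in all. GAANNTTC, an inverted pair of the units that heat shock factor binds, was present in 3 of 10 windows and in 9.38% of all windows. In the hsp16 window it reads GAAAATTC and lies upstream of the TATA box. The sequence GATAA, the core bound by the iron-responsive GATA repressor, was present in 6 of 10 windows and in 54.1% of all windows. The TATA box letters TATAAA were present in 6 of 10 and in 44.6%. The letters TGACGT, the core of the cAMP response element, CCCCTC, the stress starvation element, and CAGTCACA, the HomolD box of ribosomal protein promoters, were in 0 of 10 windows, and in 5.36%, 1.77% and 2.86% of all windows. CAGTCACA did appear on the other side of a gap, in the rpp201 window shown above and in that of SPAPB1A10.08. Windows on the other side are outside these counts, and the other motifs are not listed for them here. A run of 8 A bases, or of 8 T bases on the other strand, not capitalised, was in 3 of 10 windows and in 18.0% of all. No base of the printed windows lay in more than 1 match. These are letter matches in a window of fixed length, with 10 windows, and no test was made.

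On F060D the 13 regions had a median centred log2 ratio of 1.29 and a range of 1.01 to 2.31, which is what chose them. They are 6.77% of the 192 eligible regions, whereas 644 of 4981 intergenic features measured on F060D, or 12.9%, reached 1. The eligible regions as a whole had a median of 0.15, with a range of -0.91 to 2.31, and the median of all intergenic features was 0.15 too. None of the 192 was at -1 or lower, where 15 intergenic features (0.301%) lay. Of the 644 raised features, 373 had both channels above 0 in a spot of both E120D slides and 207 in a spot of only 1 slide. The remaining 64 had no such spot on E120D, and the 13 are the ones among them with accepted precipitate and input at 0 in every spot.

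The region of cyk3, a cytokinesis gene, stood highest. Its repeat spots had log2 ratios of 2.26 and 2.35 on F060D, mean 2.31, and the next region was at 1.74. On F060D the spots held 638 and 535 kU of precipitate (1 kU is 1000 scanner intensity units) over 156 and 123 kU of input. On E120D the same region had the lowest precipitate of the 13 on both slides, with means of 144 kU on replicate 1 and 104 kU on replicate 2. E120D means over repeat spots were taken on the log scale. The order on F060D is therefore not the order of precipitate signal on E120D. Over local background, however, the cyk3 spots were not low on E120D. They stood at 3.05 and 3.73 times on replicate 1 and at 2.93 and 3.36 times on replicate 2. The medians over all spots of the 13 were 1.71 and 1.93 times.

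Next came the region of SPAPB1A10.07c, annotated as a sphingolipid biosynthesis protein, with spots at 1.75 and 1.73 and a mean of 1.74. The region of SPCC794.03, a thiamine transporter, had spots at 1.503 and 1.62, mean 1.56. That of SPBP8B7.05c, which is nce103, a putative carbonic anhydrase, had spots at 1.49 and 1.47, mean 1.48. Together with that of cyk3, the regions of SPAPB1A10.07c and SPCC794.03 were the 3 above 1.5. On E120D the precipitate in these regions averaged 157 and 122 kU for SPAPB1A10.07c, 149 and 127 kU for SPCC794.03 and 206 and 209 kU for SPBP8B7.05c, on replicates 1 and 2 in that order.

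Zas1, a zinc finger transcription regulator, and rec12, the Spo11 protein that makes meiotic DNA breaks, have a transfer RNA gene as their 5′ neighbour. The region of zas1 had spots at 1.44 and 1.49 on F060D, mean 1.46, and that of rec12 had 1.33 and 1.26, mean 1.29. On E120D the precipitate averaged 268 and 244 kU at zas1 and 210 and 188 kU at rec12. Both were above the median of accepted precipitate spots, 160 kU on replicate 1 and 152 kU on replicate 2. The unmatched region SPAC1F12.10 had spots at 1.46 and 1.44, mean 1.45, and the brightest E120D precipitate of the 13 on both slides, 317 and 262 kU. It and zas1 lie in the same row of the same print block. Over local background the spots of both regions were below the medians of the 13 on E120D. On replicate 1 they stood at 1.04 and 0.992 times for SPAC1F12.10 and at 1.11 and 1.14 times for zas1. On replicate 2 they stood at 1.25 and 1.17 times and at 1.66 and 1.65 times, in that order.

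Hsp16 encodes the small heat shock protein of fission yeast, a chaperone induced by heat and other stresses. Its region had spots at 1.35 and 1.16 on F060D, mean 1.26, the widest gap between repeat spots of the 13 at 0.195. The median gap was 0.065 among the 13 and 0.092 over all intergenic features with repeat spots. Repeat spots sit side by side on the slide, so this gap measures spotting and hybridisation at a single place only. E120D precipitate averaged 198 kU on replicate 1 and 148 kU on replicate 2.

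The other 5 members spanned 1.01 to 1.23. They are the regions of sop2 at 1.23, which is arc1 of the actin-nucleating Arp2/3 complex, of SPBC1711.10c at 1.15, which is npl4 of the ubiquitin system, and of SPAC2F3.14c at 1.14, which is the splicing-associated factor saf2. The region of SPCC18B5.02c, with no product in the annotation, was at 1.11, with spots at 1.02 and 1.20. Its 5′ neighbour is wee1, the kinase that delays entry into mitosis, and its E120D precipitate averaged 152 and 146 kU on replicates 1 and 2. Last was SPBC1778.07, a carnosine N-methyltransferase, at 1.01, with spots at 0.98 and 1.04. The regions just below the threshold were those of SPBP19A11.06 at 0.97, SPCC306.08c at 0.91 and SPBP16F5.08c at 0.90. The repeat spots of SPBC1778.07 lay on both sides of the threshold.

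**Figure D1:**
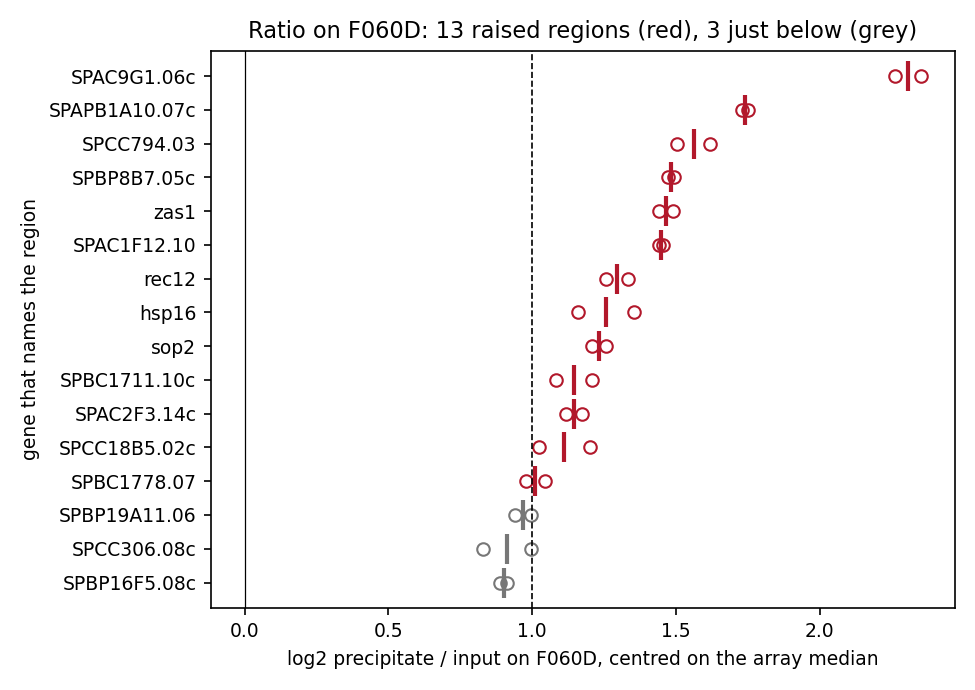
Centred log2 ratio of precipitate over input on F060D for each repeat spot (circles) and their mean (bars), for the 13 regions in red and the 3 just below the threshold in grey. The dashed line is the threshold of 1, and SPAC9G1.06c, the region of cyk3, stands apart at 2.31.

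Input, taken as channel A there, was undetected on E120D and not necessarily absent. If the letters were the other way on E120D, the undetected channel would be the precipitate. All 26 input spots of the 13 regions were rejected on both slides, with a listed signal of 0. On F060D the same regions had input means from 96.6 to 583 kU and precipitate means from 224 to 1274 kU. Input was below the lower quartile of the array in 8 of 13 regions and in 70 of the 179 other eligible regions. Precipitate was below that quartile in 0 of 13 regions and in 72 of the 179 others. The ratio that chose the 13 is made of these signals, so both contrasts follow from the choice. Rejected input was common on E120D. It affected 29.2% of all yeast spots on replicate 1 and 63.8% on replicate 2, against 2.12% on F060D. Among spots as bright in precipitate as the 13 regions, the shares were 21.9% and 48.2%.

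E120D precipitate ran from 144 to 317 kU in the 13 regions on replicate 1, median 198, against 68.7 to 408 kU, median 179, in the 179 other eligible regions. On replicate 2 it ran from 104 to 262 kU, median 148, against 94.7 to 444 kU, median 195, in the others. The ranges overlap on both slides, and the median of the 13 was higher on replicate 1 and lower on replicate 2. Over its local background the precipitate of single spots was 0.992 to 4.15 times on replicate 1, 1.17 to 3.69 times on replicate 2 and 14.5 to 68.8 times on F060D. Spots printed with buffer, Escherichia coli DNA or nothing, 1560 per slide, show the same state on E120D. Precipitate above 0 with input at 0 was listed for 31.6% of them on replicate 1 and 33.0% on replicate 2, with medians of 122 and 135 kU and a 95th percentile of 249 and 289 kU. The mean precipitate of 2 of 13 regions exceeded that percentile on replicate 1, those of zas1 and SPAC1F12.10, and that of 0 of 13 on replicate 2. The median of all accepted yeast precipitate spots, 160 and 152 kU, was also below it on both slides. Falling below it is thus not particular to the 13. The E120D precipitate of the 13 thus lay mostly within the range of spots without yeast DNA, but in its upper part. It was above the median of those spots in 26 of 26 spots on replicate 1 and in 19 of 26 on replicate 2. On F060D, 334 of these spots had precipitate above 0, with a median of 35.3 kU and a 95th percentile of 291 kU. The mean of 10 of 13 regions exceeded that percentile there, those of SPCC794.03, hsp16 and SPBC1711.10c being below it. The median of all accepted yeast precipitate spots of F060D, 313 kU, exceeded it as well. The 13 regions lie in 10 of 48 print blocks. The share of spots with input at 0 in those blocks was 19.7% to 49.5% on replicate 1 and 48.1% to 85.9% on replicate 2, within the 7.41% to 79.3% and 46.7% to 93.8% over all blocks. The part of slide position in the undetected input was not tested.

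With input at 0, E120D gives no ratio. Its precipitate can be set against an assumed input level taken from the accepted input spots of each slide. Against the lowest accepted input, 13 of 13 regions were at 1 or more on both slides, but so were all 192 eligible regions (100%), and a rejected spot can hold more signal than the lowest accepted one, so this is not a firm bound. Against the 5th percentile, 33.4 and 30.4 kU on replicates 1 and 2, it was 10 of 13 regions, with a background of 83.3% over the eligible regions. Against the 25th percentile, 66.9 and 54.9 kU, 2 of 13 regions reached 1 on both slides, those of zas1 (1.33 and 1.11) and SPAC1F12.10 (1.56 and 1.21), against 13.5% of the eligible regions. The count was 0 against the median input. The lowest and the median level give all eligible regions the same answer, and at the percentiles between them the shares of the 13 are near those of the eligible regions.

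**Figure D2:**
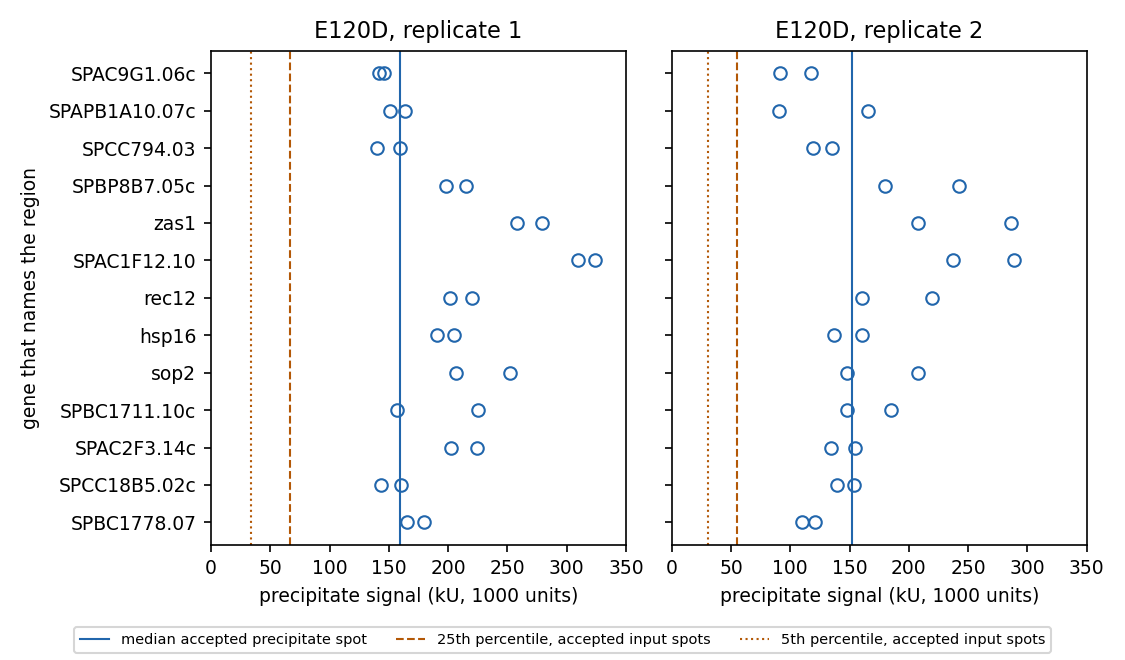
Precipitate signal of each repeat spot of the 13 regions on the E120D slides, in kU (1000 intensity units), with the median of accepted precipitate spots (solid line) and the 25th and 5th percentiles of accepted input spots (dashed and dotted lines). In signal not divided by local background, SPAC1F12.10 and zas1 are brightest on both slides, and SPAC9G1.06c, highest on F060D, has the lowest mean.

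The 12 mapped gaps differ in size and layout. In ASM294v3 coordinates, the cyk3 gap is chrI:1982108-1983181, that of SPAPB1A10.07c chrI:1873798-1876258 and that of SPCC794.03 chrIII:244970-245963. The nce103 gap is chrII:3641951-3643188, the zas1 gap chrII:180609-180993, the rec12 gap chrI:1772370-1772924 and the hsp16 gap chrII:2660922-2661795. The gap of arc1 is chrII:2213373-2214437, that of npl4 chrII:2154336-2155272 and that of saf2 chrI:3951516-3954470. The gap between SPCC18B5.02c and wee1 is chrIII:718870-722233, and that between SPBC1778.07 and fim1 is chrII:3108742-3109960. None of these intervals holds coding sequence of an annotated protein gene, by construction. Of these, 9 are divergent, so that the gap holds the 5′ ends of both neighbouring genes (75%), compared with 55.2% of the 172 mapped gaps of other eligible regions and 54.0% of the 4556 mapped intergenic features measured on F060D. The 3 tandem gaps are those of SPCC794.03, which follows wtf5 of the wtf meiotic drive family, of zas1 and of rec12. A transfer RNA gene borders 2 of 12 gaps (16.7%), against 0 of 172 and 2.74%. Gap length had a median of 1069.5 bases in the 12, from 385 bases at zas1 to 3364 bases between SPCC18B5.02c and wee1. The medians were 777 bases in the other eligible regions and 838 bases over all. Intergenic features at 1 or more on F060D with both channels measured on all arrays, 336 with a mapped gap, had a median of 1287 bases. Of these 336 gaps, 62.8% were divergent and 4.17% were bordered by a transfer RNA gene. GC content had a median of 31.3% in the 12, 30.6% in the others, 31.2% over all and 33.5% in the measured raised features. A long noncoding RNA overlapped all 12 gaps, compared with 78.5% of the others and 81.0% over all.

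**Figure D3:**
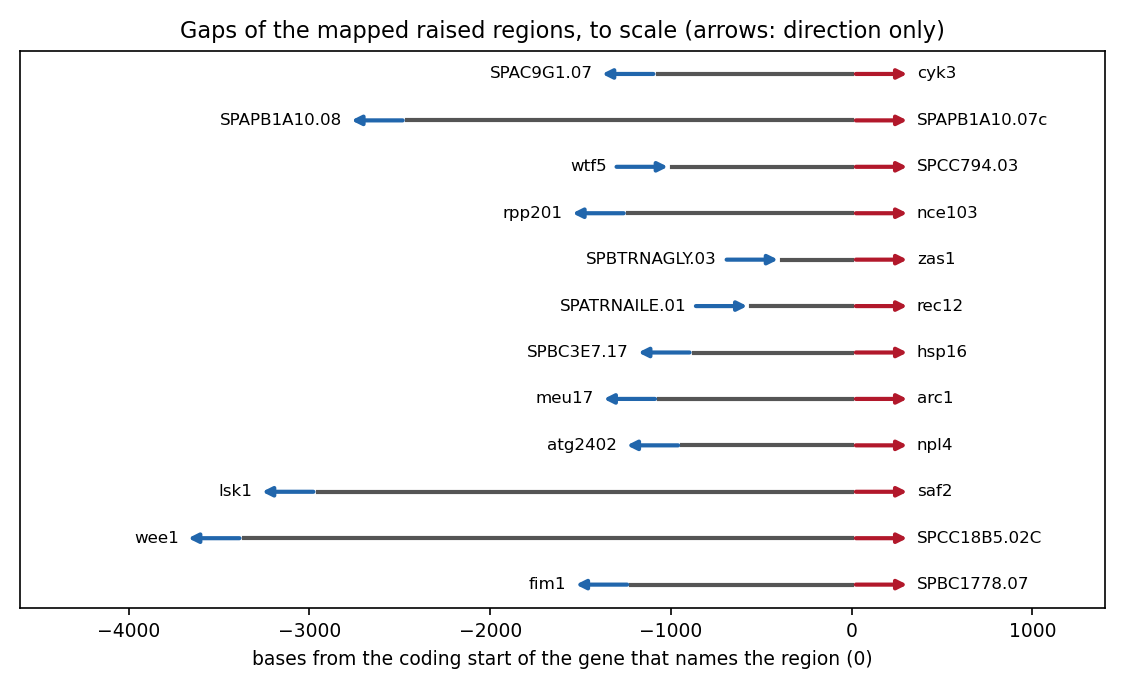
Gaps of the 12 mapped regions drawn to scale, in bases from the coding start of the gene that names the region (red arrow, at 0) to its 5′ neighbour (blue arrow), ordered by ratio on F060D. Arrows that point apart mark the 9 divergent gaps, and the gaps of saf2, SPAPB1A10.07c and SPCC18B5.02c are the longest.

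Divergent gaps can hold another intergenic feature, named after the gene on the other side, which the choice of the 13 did not use. There were 7 such features. On F060D they ran from -0.28 to 1.79, median 0.98. There 5 of 7 were above 0 (background 62.3%) and 3 of 7 were at 1 or more (background 12.9%), and with F060D turned 2 and 0 of 7. On E120D replicate 1 all 7 were above 0 (background 72%) and 4 of 7 were at 1 or more (background 26.8%), with a median of 1.16. Features of a gap can report the same stretch of chromatin, so they are not separate observations of binding.

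Only 2 of the 7 were measured on all arrays, and both passed the test of the mean against 0 (limma, adjusted p under 0.05, background 21.5%). The wee1 feature, in the gap of SPCC18B5.02c, had values of 1.93, 0.92 and 1.56 on replicates 1 to 3, as centred log2 ratios. It was above 0 on every array, with a mean of 1.47 ± 0.51 (SD, n = 3; limma adjusted p = 0.000751). The SPAPB1A10.08 feature had 1.71, 1.38 and 0.98 and was also above 0 on every array, mean 1.35 ± 0.37 (SD, n = 3; limma adjusted p = 0.0022). Without replicate 1 the means were 1.24 for wee1 and 1.18 for SPAPB1A10.08 (adjusted p = 0.226 and 0.244), a setting in which the calls above the median fell to 47 of 1548 intergenic features, against 333. Both calls were also lost with F060D turned, where the means were 0.43 and 0.70 (adjusted p = 0.907 and 0.822). That setting called 0 of 4280 features in either direction, so the loss is not particular to these 2. The variance prior of this test was infinite, so all features shared a standard error of 0.36 and the p-value does not measure a feature's own spread.

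When features measured on at least 2 arrays were tested, a setting chosen after seeing the data, 4 of 7 passed (background 15.4%). The added features had values on replicates 1 and 3 only. The SPAC9G1.07 feature, across the gap from cyk3, had 1.60 and 1.79, mean 1.69 (limma adjusted p = 0.00169). The fim1 feature, on the fimbrin side of the SPBC1778.07 gap, had 1.16 and 1.37, mean 1.26 (limma adjusted p = 0.0285). Both lay at 1 or more on both arrays. The other 3 did not pass, and their values were 0.35 and 0.82 for SPBC1711.11, 0.38 and -0.25 for SPAC2F3.15, and 0.03 and -0.28 for meu17, on replicates 1 and 3. At saf2 and arc1 the region in the set thus exceeded the feature across the gap on F060D by 1.40 and 1.51 on the log2 scale, in gaps of 2955 and 1065 bases. These were the largest differences. In the other gaps the region minus the feature ran from -0.45 to 0.76. The choice of regions favours a positive difference.

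The ORF features on either side of the gaps were not used in the choice of the 13. There were 22, and on F060D they ran from -0.73 to 1.497, median 0.14, with 13 of 22 above 0 (background 37.8%) and 1 of 22 at 1 or more (background 3.31%), and with F060D turned 9 and 0 of 22. On replicate 1, 8 of 18 measured were above 0 (background 31.7%) and 3 of 18 at 1 or more (background 6.36%). The ORF at 1 or more on F060D is that of SPAC1F12.10, at 0.53 on replicate 1 and 1.497 on F060D, close to its intergenic region at 1.45. In every other case the region exceeded its own ORF on F060D, a difference the choice of regions favours. Of 11 flanking ORFs measured on all arrays, 0 passed above the median (limma, background 2.27%), and 1 had an unadjusted p under 0.05. It is SPCC18B5.02c, with 1.24, 1.27 and 0.14 on replicates 1 to 3, mean 0.89 ± 0.64 (SD, n = 3; limma adjusted p = 0.0601). It was high on the E120D slides and near 0 on F060D, and it passed without replicate 3 (adjusted p = 0.00664), with limma's trend (0.0417) and when arrays were centred on shared features (0.0497).

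The cyk3 ORF was the only flanking ORF called below the median (background 15.5%). It had -1.58, -1.45 and -0.23 on replicates 1 to 3, below 0 on every array, mean -1.08 ± 0.74 (SD, n = 3; limma adjusted p = 0.0177). The call was lost without replicate 1 (0.492), without replicate 2 (0.21), with loess (0.116), with shared centring (0.0622), with limma's trend (0.134) and with F060D turned (0.808). In that order, these settings called 6, 78, 90, 192, 0 and 0 of 2732 ORF features below the median, against 423 in the main test. Each of these settings called fewer ORF features below the median, but several still called many. Why the cyk3 call was lost was not tested. The hsp16 ORF had 0.66 on replicate 1 and 0.47 on F060D, and the rec12 ORF 0.37 on F060D alone. The wee1 ORF was near 0 on every array, at 0.14, -0.34 and 0.18, where the intergenic feature beside it was at 0.92 or more.

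**Figure D4:**
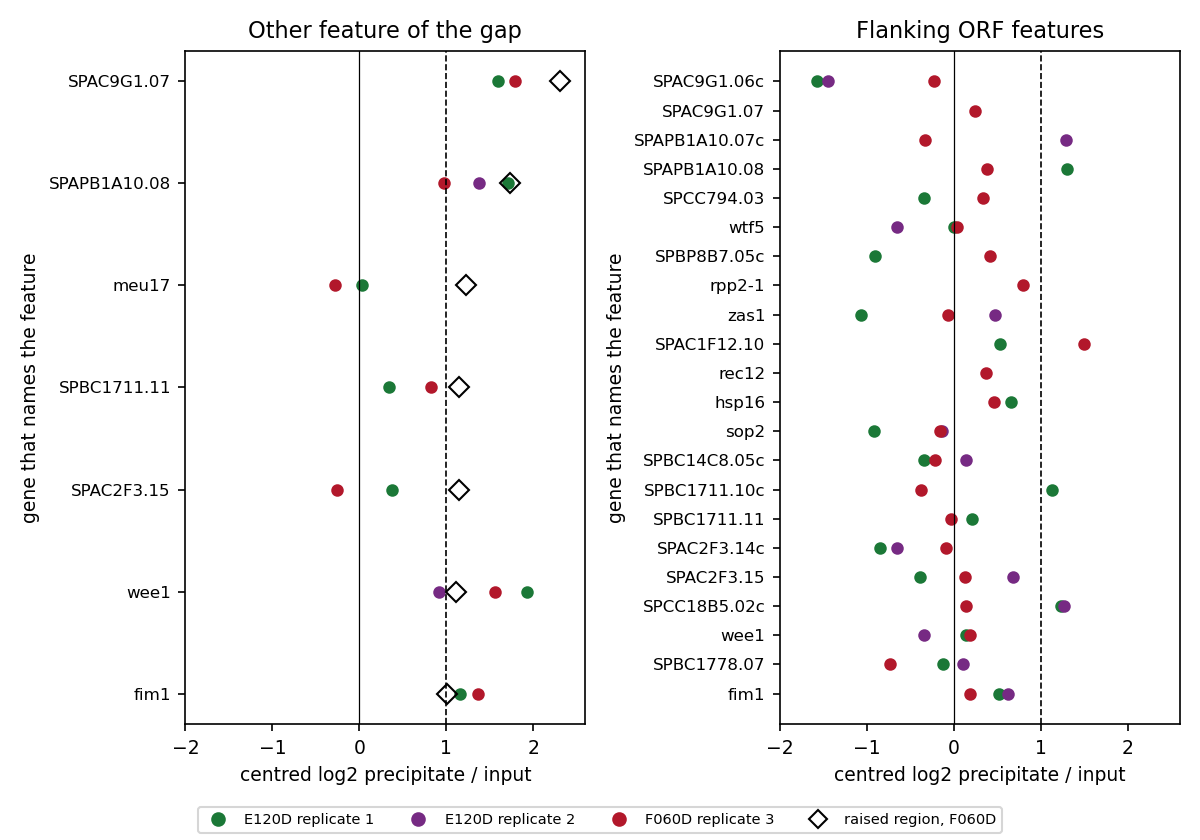
Centred log2 ratio of precipitate over input on each array (colours) for the 7 other intergenic features of the gaps, with the F060D ratio of the region in the set as open diamonds, and for the 22 flanking ORF features. The SPAC9G1.07, SPAPB1A10.08, wee1 and fim1 features sit near or above 1 on the arrays that measured them, and 1 of 22 ORFs reaches 1 on F060D.

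Of 13 gene lists for Tup11-related processes, 2 held a gap of the set. Their counts stand against 12.9% of all intergenic features at 1 or more on F060D, and 6.77% of eligible regions in the set. The stress response list reached hsp16 and no other of the 13, with 78 of its intergenic features measured on F060D, 24 at 1 or more and 4 eligible. The cell cycle list reached the wee1 gap, with 57 measured, 11 at 1 or more and 4 eligible. The iron uptake list had 37 measured, 20 at 1 or more and 3 eligible, with 0 in the set, and the gluconeogenesis and glucose-repressed list 39, 20 and 1, with 0 in the set. For the phosphate and thiamine list, which does not name SPCC794.03, the counts were 21, 7 and 0, and for the glycolysis and fermentation list 33, 19 and 0. The other 7 lists held 0 to 4 eligible regions each and 0 of the set. Among them, the transcription factor list did not reach zas1, and the mating and meiosis list did not reach rec12. A count of 0 thus does not mean that the set lacks genes of that kind. A gap can count under several lists, and no list was tested.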

How the data were processed

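The authors scanned 3 arrays and deposited spot intensity on a linear scale, which is TIGR Spotfinder's integrated signal minus local background, per the file headers. The value tables that the authors deposited look like log10 values of 1 channel per array, with ORF and intergenic names exchanged relative to the scanner tables. They served only to choose the likely direction, after exchanging the names back. The authors' binding list, per the labels, was cut at the 85th percentile of ranked ratios. Neither Spotfinder's version nor the genome build is given in the sources used here.

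Intensities of 0 are rejected spots. Log2 ratios of precipitate over input were averaged over repeat spots and centred on the median of all yeast features of the array, with no loess. Features measured on all 3 arrays (4280) were tested with limma 3.58.1 (R 4.3.3), the mean against 0, with Benjamini-Hochberg adjustment over all of them. The test called 395 features above the median and 452 below. The fit was tested on simulated data, drawn independently for each array with the fit's own variance. That checks the calculation only and not how well the p-values hold on these arrays. The number of arrays limits the precision. The 13 regions have no 3-array test. Those named are all 13, the 3 regions just below the threshold, members in the lists, and flanking ORFs and gap features that passed. Members, lists and tests were chosen with earlier results of these data known. Names were matched to ASM294v3 for 91.8% of 10224 features.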

Additional observations from a re-analysis of the deposited data

How the results depend on the processing

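The set kept 9 to 13 regions, all among the 13, when F060D was centred on intergenic features, normalised by loess, read from the median spot signal or without background subtraction, or required in every spot. It held 48 regions at a threshold of 0.5, 3 at 1.5, 139 with input at 0 on at least 1 E120D slide, and 0 with F060D turned. The number of regions at 1 or more over the assumed input on both slides was 13 without centring and without either slide, 10 at the 5th percentile, 2 at the 25th and 0 at the median, the last chosen after seeing the data. Flanking ORFs called above the median numbered 0 to 1 with 1 replicate left out (1 without replicate 3), 1 with shared centring and 1 with limma's trend. Other features of the gaps numbered 0 to 2 with 1 replicate left out (0 without replicate 1). With F060D turned they numbered 0, a setting that called 0 of 4280 features in all. They numbered 1 on bright spots only, where fewer features were tested, and 4 on at least 2 arrays, chosen after seeing the data. Apart from those 2 changes in what was tested, the cause was not tested. No paired analysis was possible because all arrays belong to a single group. The main limits are that the set rests on F060D alone and that the direction is likely only, on E120D as well as on F060D. In addition, input at 0 gives E120D no ratio. E120D precipitate also lay mostly within the range of spots without yeast DNA, as did the median yeast spot of each slide.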
